A study of Mus musculus with 18 samples.

Results

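The 10 genes described here, Myh3, Myh8, Acta1, Myl1, Mylpf, Tnni1, Tnnt1, Neb, Ckm and Chrna1, encode the contractile apparatus of skeletal muscle, its creatine kinase and a subunit of its acetylcholine receptor. They were taken by name from 34244 rows of gene expression values, and all 10 passed the filter on low values that 19397 rows passed. The values came from whole mouse embryos of the FVB strain at E11.5, with 3 embryos of each of 3 genotypes and 1 RNA library per embryo. Dnmt3b+/+ embryos carried 2 wild-type copies of the gene for the de novo DNA methyltransferase Dnmt3b. Embryos labelled Dnmt3b-/- were homozygous for a conventional null allele, carried in every tissue. Dnmt3bCI/CI embryos were homozygous for a knock-in made with CRISPR/Cas9, in which the proline and cysteine of the catalytic motif were replaced by valine and aspartate, a change designed to keep the protein while removing its catalytic activity, although some residual activity is possible. No embryo was treated, embryos came from matings of heterozygous mice and were taken only if alive, and sex and litter were not given in the sources used here.

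A skeletal muscle fibre contracts when myosin heads of the thick filament pull on actin of the thin filament. Heavy chains carry the motor, light chains stiffen and tune its neck, troponin and tropomyosin make the thin filament respond to calcium, and nebulin runs along the thin filament. Embryonic fibres use isoforms of their own, and at this stage skeletal muscle lies mainly in the myotomes of the somites, where the transcription factors MyoD and myogenin switch these genes on. Several of the genes are shared with the embryonic heart. In RNA from a whole embryo, fewer muscle cells and less of an RNA in each muscle cell cannot be told apart.

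Levels are given in FPKM, which counts fragments relative to transcript length and to the reads of the library, and the totals behind this unit ranged from 38451729 to 49808777 reads per library. The 10 genes were covered by 24 to 8529 reads in each embryo, except Ckm with 9 to 52. Dnmt3b itself, summed over the whole gene, had 2.45 to 3.33 FPKM in the embryos labelled Dnmt3b-/- and 1.62 to 2.25 FPKM in Dnmt3b+/+ embryos. It was thus higher by 0.57 on the log2 scale (limma adjusted p = 0.0248), without overlap and short of the 2-fold limit. A value over the whole gene does not show a deletion of a few exons, so it neither checks nor contradicts the label, and these embryos are named by their label. The libraries differed in organs other than skeletal muscle. The summed level of 15 heart genes ranged from 9.65 to 128 FPKM in Dnmt3b+/+, from 32.7 to 145 FPKM in embryos labelled Dnmt3b-/- and from 9.31 to 125 FPKM in Dnmt3bCI/CI. Myl2, the ventricular light chain, was under 0.1 FPKM in 4 libraries (Dnmt3b+/+ embryos 1 and 3, labelled Dnmt3b-/- embryo 1 and Dnmt3bCI/CI embryo 3). In Dnmt3b+/+ embryo 1 and Dnmt3bCI/CI embryo 3, 3 of the 15 heart genes had 3 reads or fewer. Dnmt3b+/+ embryo 2 stood apart in liver genes, with 3 of 6 hepatocyte genes at 3 reads or fewer.

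The first question was whether these genes depended on the presence of Dnmt3b. In the embryos labelled Dnmt3b-/-, 8 of the 10 contractile genes fell against Dnmt3b+/+ embryos. By the means, the fall was 2.07-fold for the slow troponin T gene Tnnt1 up to 4.52-fold for the acetylcholine receptor gene Chrna1. Myh3, Myh8, Acta1, Myl1, Mylpf and Neb were the other 6, and in all 8 the 3 embryos labelled Dnmt3b-/- lay below the 3 Dnmt3b+/+ embryos. On the tested log2 scale Myh8 fell most (−2.01). Tnni1 and Ckm did not pass the test, and no gene of the 10 was higher. A gene was called at a Benjamini-Hochberg adjusted p under 0.05, from limma on log2(FPKM + 0.1), and a fold change of at least 2. Of all 19397 genes tested, 3.38% were called lower and 1.07% higher, and 23.8% had all 3 labelled Dnmt3b-/- embryos below all 3 Dnmt3b+/+ embryos. The median difference of the 10 genes was −1.44 on the log2 scale, beside −0.07 over all genes tested.

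**Figure D1:**
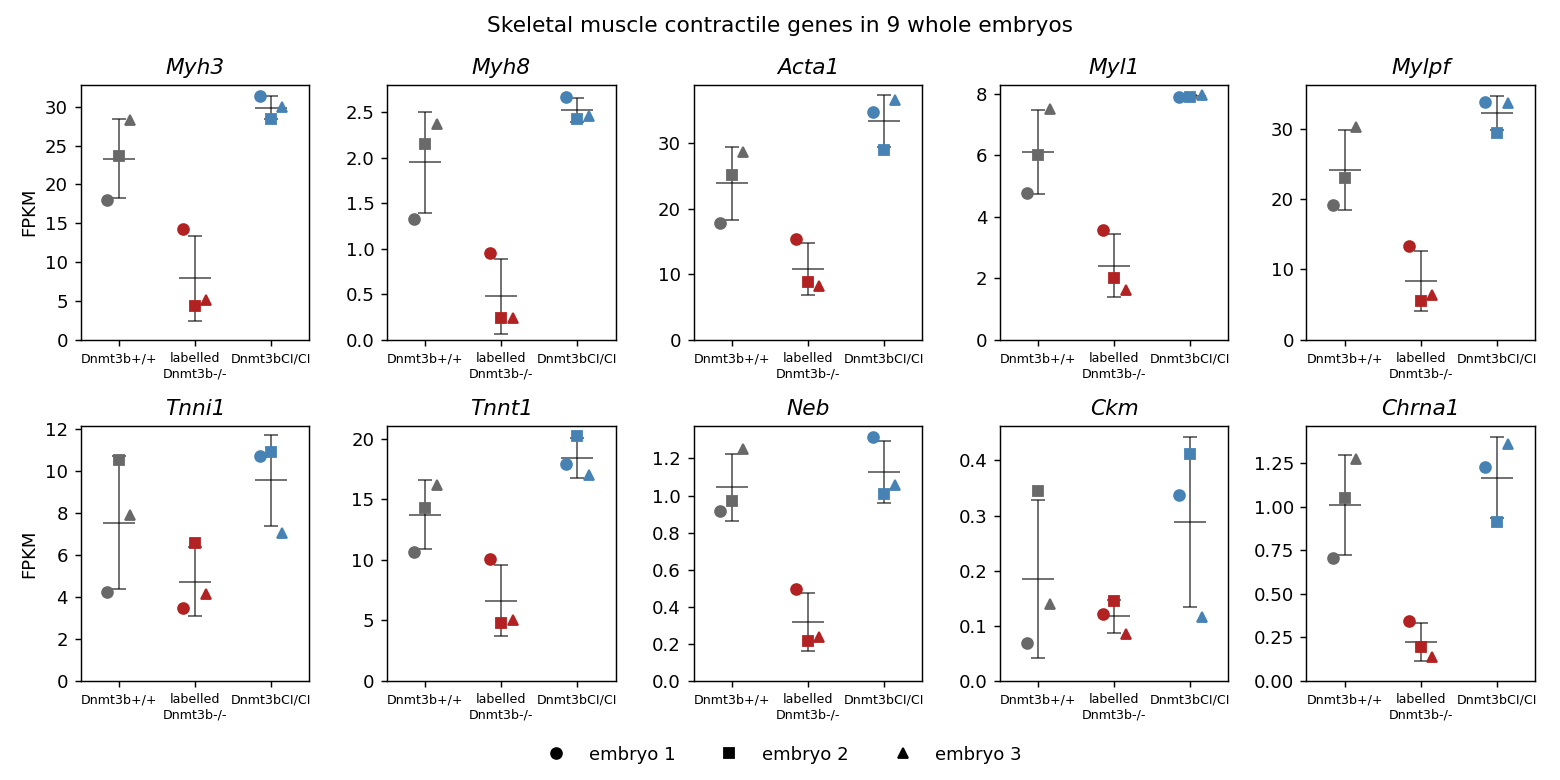
FPKM (y axis, linear, a separate scale in each panel) of the 10 contractile genes in each of 9 embryos, by genotype; circles, squares and triangles are embryos 1, 2 and 3, and the bars give the mean and SD of 3 embryos. In 8 panels the red points of the embryos labelled Dnmt3b-/- lie below all grey Dnmt3b+/+ points, with embryo 1 the highest of the 3, whereas in the panels of Tnni1 and Ckm the groups overlap.

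Myh3 encodes the embryonic myosin heavy chain, the main motor of the first fibres. It lies on chromosome 11 (67078300 to 67102291, plus strand, GRCm38). It had 18.1, 23.6 and 28.3 FPKM in Dnmt3b+/+ embryos 1, 2 and 3, and 14.2, 4.38 and 5.04 FPKM in the embryos labelled Dnmt3b-/-. The groups did not overlap, but embryo 1 labelled Dnmt3b-/- lay close to the lowest Dnmt3b+/+ embryo. The difference was −1.74 ± 0.39 (log2 scale, SE, n = 3 per genotype, limma adjusted p = 0.0142), or 2.96-fold lower by the means. Its adjusted p rose to 0.0509 without labelled Dnmt3b-/- embryo 2, to 0.0516 without embryo 3 of that genotype and to 0.0523 without Dnmt3b+/+ embryo 3.

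Myh8, the perinatal heavy chain, follows Myh3 on the same chromosome (67277124 to 67308634, plus strand) and was expressed at a lower level. Its levels were 1.32, 2.15 and 2.38 FPKM in Dnmt3b+/+ and 0.950, 0.242 and 0.237 FPKM in the embryos labelled Dnmt3b-/-. Embryos 2 and 3 with this label were at 12.4% and 12.1% of the Dnmt3b+/+ mean, the lowest shares of any of the 10 genes. The difference was −2.01 ± 0.41 (log2 scale, SE, adjusted p = 0.0108), 4.10-fold by the means. Heavy chain genes resemble each other in sequence, and reads that fit several of them could have been split or lost in the counting.

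Both genes for fast light chains fell. Myl1 (chromosome 1, 66924295 to 66945404, minus strand) encodes the essential light chain of fast muscle, and had 4.78, 6.02 and 7.51 FPKM in Dnmt3b+/+ against 3.58, 2.02 and 1.63 FPKM in the embryos labelled Dnmt3b-/-. This was a difference of −1.36 ± 0.26 (log2 scale, SE, adjusted p = 0.0084). Mylpf (chromosome 7, 127208890 to 127214298, plus strand) encodes the phosphorylatable regulatory light chain, and had 19.1, 23.0 and 30.2 FPKM against 13.3, 5.47 and 6.27 FPKM. Its difference was −1.61 ± 0.30 (log2 scale, SE, adjusted p = 0.0081). Both genes kept a gap between the groups, with labelled Dnmt3b-/- embryo 1 nearest to Dnmt3b+/+, and both stayed called under every alternative that was run.

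Acta1 encodes skeletal α-actin, the backbone of the thin filament, and lies on chromosome 8 (123891769 to 123894751, minus strand). Its levels were 17.8, 25.2 and 28.6 FPKM in Dnmt3b+/+ and 15.3, 8.79 and 8.14 FPKM in the embryos labelled Dnmt3b-/-. The difference was −1.17 ± 0.25 (log2 scale, SE, adjusted p = 0.0127), 2.22-fold by the means, and its adjusted p was 0.0514 without labelled Dnmt3b-/- embryo 2. Neb encodes nebulin, the giant protein along that filament, and spans 52136647 to 52378474 on chromosome 2 (minus strand). Its levels were low per length, at 0.917, 0.968 and 1.25 FPKM in Dnmt3b+/+ and 0.495, 0.214 and 0.236 FPKM in the embryos labelled Dnmt3b-/-. All 3 of the latter were under the lowest Dnmt3b+/+ embryo, with a difference of −1.52 ± 0.25 (log2 scale, SE, adjusted p = 0.0044).

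The troponin genes parted. Tnnt1, on chromosome 7 (4504570 to 4516382, minus strand), encodes the slow tropomyosin-binding subunit, and had 10.6, 14.3 and 16.2 FPKM in Dnmt3b+/+ against 10.05, 4.81 and 5.05 FPKM in the embryos labelled Dnmt3b-/-. Labelled Dnmt3b-/- embryo 1 lay just under the lowest Dnmt3b+/+ embryo, and the difference was −1.10 ± 0.27 (log2 scale, SE, adjusted p = 0.0201). This was the least firm call of the 8, and its adjusted p was 0.0549 without Dnmt3b+/+ embryo 2, 0.0700 without Dnmt3b+/+ embryo 3, 0.0729 without labelled Dnmt3b-/- embryo 2 and 0.0702 without embryo 3 of that genotype. Tnni1 encodes the slow inhibitory subunit (chromosome 1, 135779434 to 135810989, plus strand), and had 4.22, 10.5 and 7.88 FPKM in Dnmt3b+/+ against 3.45, 6.59 and 4.12 FPKM in the embryos labelled Dnmt3b-/-. The groups overlapped, since labelled Dnmt3b-/- embryo 2 lay above Dnmt3b+/+ embryo 1. The difference was −0.62 (95% interval −1.42 to 0.18, log2 scale, adjusted p = 0.219), so a fall as large as that of Acta1 lies within the interval. It was −0.99 (adjusted p = 0.0480) without Dnmt3b+/+ embryo 1, just short of the 2-fold limit, and −0.34 (adjusted p = 0.522) without Dnmt3b+/+ embryo 2.

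Ckm, the muscle creatine kinase that regenerates ATP next to the filaments, lies on chromosome 7 (19404776 to 19422841, plus strand) and was barely expressed. It had 0.0692, 0.345 and 0.140 FPKM in Dnmt3b+/+ (9, 50 and 16 reads) and 0.121, 0.145 and 0.0847 FPKM (14, 18 and 10 reads) in those labelled Dnmt3b-/-. The Dnmt3b+/+ embryos spanned the other group on both sides, and the difference of −0.28 (95% interval −1.20 to 0.63, log2 scale, adjusted p = 0.634) did not pass the test. It turned to 0.10 (adjusted p = 0.886) without Dnmt3b+/+ embryo 2, and was −0.60 without Dnmt3b+/+ embryo 1 and −0.17 without labelled Dnmt3b-/- embryo 3.

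Chrna1 encodes the α-subunit of the muscle acetylcholine receptor, which binds the transmitter released by motor axons, and lies on chromosome 2 (73563215 to 73580338, minus strand). Its levels were 0.705, 1.05 and 1.27 FPKM in Dnmt3b+/+ and 0.343, 0.193 and 0.135 FPKM in the embryos labelled Dnmt3b-/-. No embryo of the second group reached the lowest of the first, and the difference was −1.79 ± 0.28 (log2 scale, SE, adjusted p = 0.0037). A pseudocount of 1 FPKM shrinks differences of low genes. With it, Neb and Chrna1 fell under 2-fold, at −0.64 and −0.71 on that log2 scale, and Myh8 stayed called at −1.02. Tnnt1, a more abundant gene already near the limit at −1.10, moved to −0.99 and also fell under 2-fold.

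The embryos labelled Dnmt3b-/- were not alike. In the 8 genes that fell, embryo 1 kept 34.0% (Chrna1) to 73.3% (Tnnt1) of the Dnmt3b+/+ mean. Embryo 2 kept 12.4% (Myh8) to 36.8% (Acta1) and embryo 3 kept 12.1% (Myh8) to 36.8% (Tnnt1), so the highest gene of each of these embryos was near the lowest of embryo 1. Among Dnmt3b+/+ embryos, embryo 1 was the lowest in all 10 genes and embryo 3 the highest in 8. The highest of the 9 embryos was a Dnmt3bCI/CI embryo in all 10 genes. The 10 genes were measured in the same 9 embryos, so these counts are not 10 separate observations.

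The second question was whether the genes differed in level in Dnmt3bCI/CI embryos, whose Dnmt3b was designed to lack catalytic activity. None of the 10 was called in Dnmt3bCI/CI against Dnmt3b+/+ embryos by limma, and none had an unadjusted p under 0.05. All 10 differences were above 0, from 0.10 for Neb to 0.51 for Acta1 on the log2 scale, with a median of 0.40 beside 0.02 over all genes tested. Without Dnmt3b+/+ embryo 1, the lowest of its genotype in all 10 genes, the differences ran from −0.0059 to 0.31 with a median of 0.18. Of all genes tested, 0% were called lower and 0.129% higher. In 5 of the 10 genes (Myh3, Myh8, Acta1, Myl1 and Tnnt1), all 3 Dnmt3bCI/CI embryos were above all 3 Dnmt3b+/+ embryos, against 7.53% of all genes tested. The intervals bound what could have been missed.

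Myh3 had 31.4, 28.4 and 29.9 FPKM in the 3 Dnmt3bCI/CI embryos, and differed from Dnmt3b+/+ by 0.38 (95% interval −0.50 to 1.26, log2 scale). Acta1 had 34.8, 29.0 and 36.6 FPKM, a difference of 0.51 (−0.07 to 1.08). Both sat above Dnmt3b+/+ in every embryo. Myl1 was almost the same in all 3, at 7.88, 7.91 and 7.96 FPKM, and differed by 0.39 (−0.20 to 0.98). Mylpf had 33.7, 29.4 and 33.6 FPKM, with embryo 2 under the highest Dnmt3b+/+ embryo, and Tnnt1 had 17.9, 20.2 and 17.0 FPKM. Apart from Mylpf in embryo 2, these 5 genes were above the highest Dnmt3b+/+ embryo in every Dnmt3bCI/CI embryo.

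Neb and Chrna1 were the closest to Dnmt3b+/+. Neb had 1.32, 1.01 and 1.05 FPKM and differed by 0.10 (−0.46 to 0.66), and Chrna1 had 1.23, 0.911 and 1.36 FPKM and differed by 0.21 (−0.42 to 0.84). Both overlapped with Dnmt3b+/+ embryos, and their intervals exclude falls as large as the −1.52 and −1.79 of the first comparison. Myh8 had 2.67, 2.43 and 2.46 FPKM, each above the highest Dnmt3b+/+ embryo. Tnni1 had 10.7, 10.9 and 7.07 FPKM and Ckm 0.336, 0.412 and 0.116 FPKM, and in both genes embryo 3 fell well inside the Dnmt3b+/+ range.

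Set against Dnmt3bCI/CI embryos, the embryos labelled Dnmt3b-/- were again lower in the same 8 genes, and 9 of the 10, all but Ckm, had no overlap between the groups. This comparison uses the same labelled Dnmt3b-/- embryos as the first, so it is not a separate test of them. The differences ran from −1.54 ± 0.27 for Tnnt1 (log2 scale, SE, adjusted p = 0.0051) to −2.41 ± 0.41 for Myh8 (adjusted p = 0.0048). Chrna1 was 5.22-fold and Myh8 5.29-fold lower by the means, and Mylpf and Myh3 were 3.86-fold and 3.80-fold lower. Of all genes tested, 4.32% were called lower and 1.1% higher, and 29.5% had all 3 labelled Dnmt3b-/- embryos below all 3 Dnmt3bCI/CI embryos. Tnni1 differed by −1.03 (95% interval −1.83 to −0.23, limma adjusted p = 0.0582), on the edge of a call. Its adjusted p was 0.0260 without Dnmt3b+/+ embryo 1 and 0.0386 without Dnmt3b+/+ embryo 2. The difference itself stayed at −1.03 there, since Dnmt3b+/+ embryos enter this comparison only through the shared spread and the adjustment. The adjusted p was 0.0329 with only the 2 genotypes in the model, 0.0434 with the replicate number as a block and 0.0488 without labelled Dnmt3b-/- embryo 2. Without any other single embryo it was 0.0670 to 0.153. Ckm differed by −0.76 (−1.68 to 0.16, adjusted p = 0.188).

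**Figure D2:**
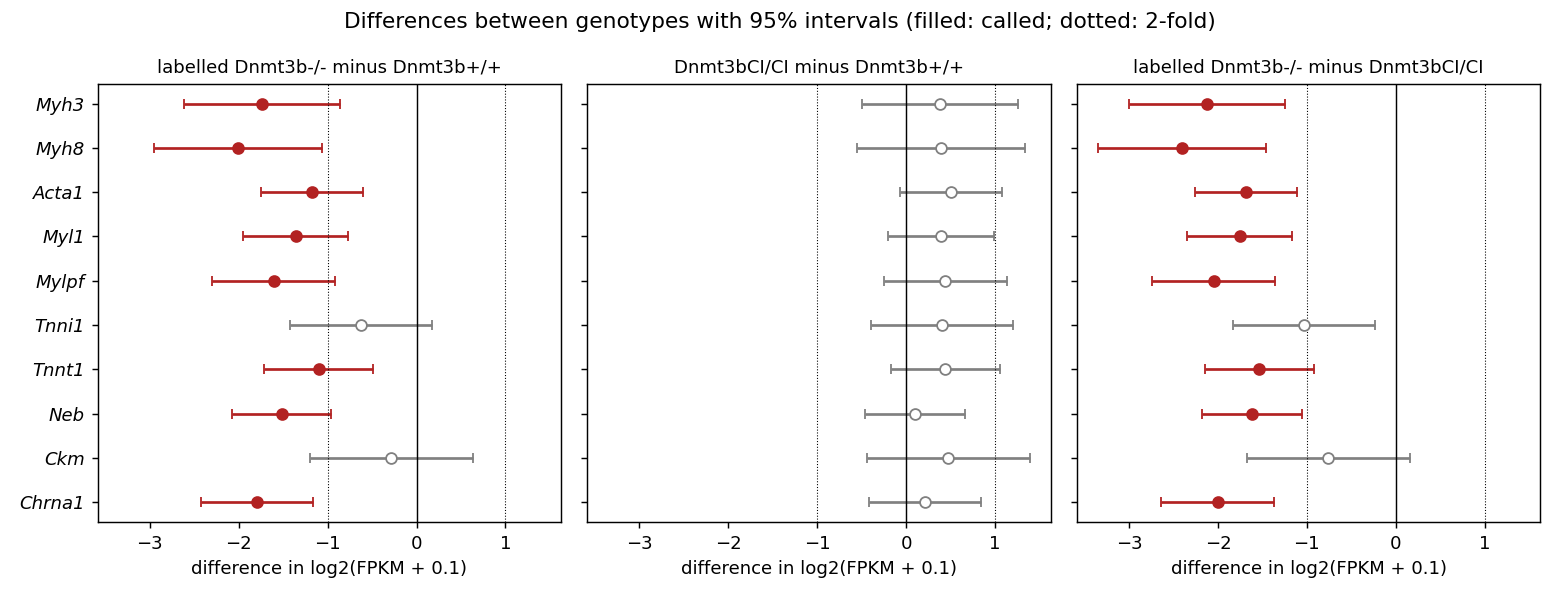
Differences in log2(FPKM + 0.1) between genotypes (x axis) for the 10 contractile genes (y axis), with 95% intervals from limma and 3 embryos per genotype; filled red points were called and dotted lines mark a 2-fold change. The points of 8 genes lie left of the −1 line in both outer panels, while all 10 points of the middle panel, Dnmt3bCI/CI minus Dnmt3b+/+, lie between 0.10 and 0.51 with intervals that reach 0.

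Tnni1 and Ckm, which did not pass the test, varied within the genotypes, and partly in the same embryos as the heart genes. They are expressed in embryonic heart as well as in skeletal muscle. Tnni1 was lowest in labelled Dnmt3b-/- embryo 1 and next lowest in labelled Dnmt3b-/- embryo 3 and Dnmt3b+/+ embryo 1, and Ckm was lowest in Dnmt3b+/+ embryo 1. In Dnmt3bCI/CI embryo 3, where Myl2 was at 0.0934 FPKM and the heart list summed to 9.31 FPKM, both genes were the lowest of their genotype. Of the 15 heart genes, none was called in any of the 3 comparisons. Against Dnmt3b+/+, 13 had a difference above 0 in the embryos labelled Dnmt3b-/- and 13 in Dnmt3bCI/CI (medians 0.60 and 0.51). Of all genes tested, 58.1% and 44.3% were below 0 in these 2 comparisons. Against Dnmt3bCI/CI, 11 heart genes were above 0 in the embryos labelled Dnmt3b-/-. In a check chosen after the data were seen, the 4 libraries with Myl2 under 0.1 FPKM were left out, which leaves Dnmt3b+/+ embryo 2 alone in its group, assumed to vary like the other groups. This embryo was the highest of its genotype in Ckm (187% of the mean) and in Tnni1 (139%), so the omission itself makes the differences from Dnmt3b+/+ larger. Ckm was then called against Dnmt3b+/+, at −1.06 (adjusted p = 0.0319), and Tnni1 was not, at −0.999. Against Dnmt3bCI/CI, Tnni1 and Ckm were both called in that check, at −1.04 and −1.15 (adjusted p = 0.0221 and 0.0147). With only the 2 libraries lowest in heart genes left out (Dnmt3b+/+ embryo 1 and Dnmt3bCI/CI embryo 3), all 8 calls against Dnmt3b+/+ stood, and all 10 genes were called against Dnmt3bCI/CI. Because Dnmt3bCI/CI embryo 3 was the lowest of its genotype in Tnni1 and Ckm, its omission itself makes their differences from Dnmt3bCI/CI larger (−1.23 and −1.13). The part of heart tissue in the values of Tnni1 and Ckm was not tested.

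Other muscle genes known from both tissues also varied within the genotypes. Actc1, the cardiac α-actin gene that embryonic skeletal muscle also uses, was the most abundant thin filament gene, at 53.4, 137 and 98.4 FPKM in Dnmt3b+/+ and at 45.0, 82.6 and 59.2 FPKM without Dnmt3b by label. Its groups overlapped, and its difference of −0.57 ± 0.34 (log2 scale, SE) did not pass the test. Myh7, the slow and cardiac β heavy chain, had 1.79, 18.5 and 3.17 FPKM in Dnmt3b+/+ and 2.48, 20.6 and 16.5 FPKM in the embryos labelled Dnmt3b-/-. It was low in the 4 libraries with little Myl2 and high in the other 5, whichever the genotype. Myl4 and Tnnc1, also drawn in the plot of embryo profiles, were added after their values were seen, as were Myl2 and Myl7 from the heart list.

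**Figure D3:**
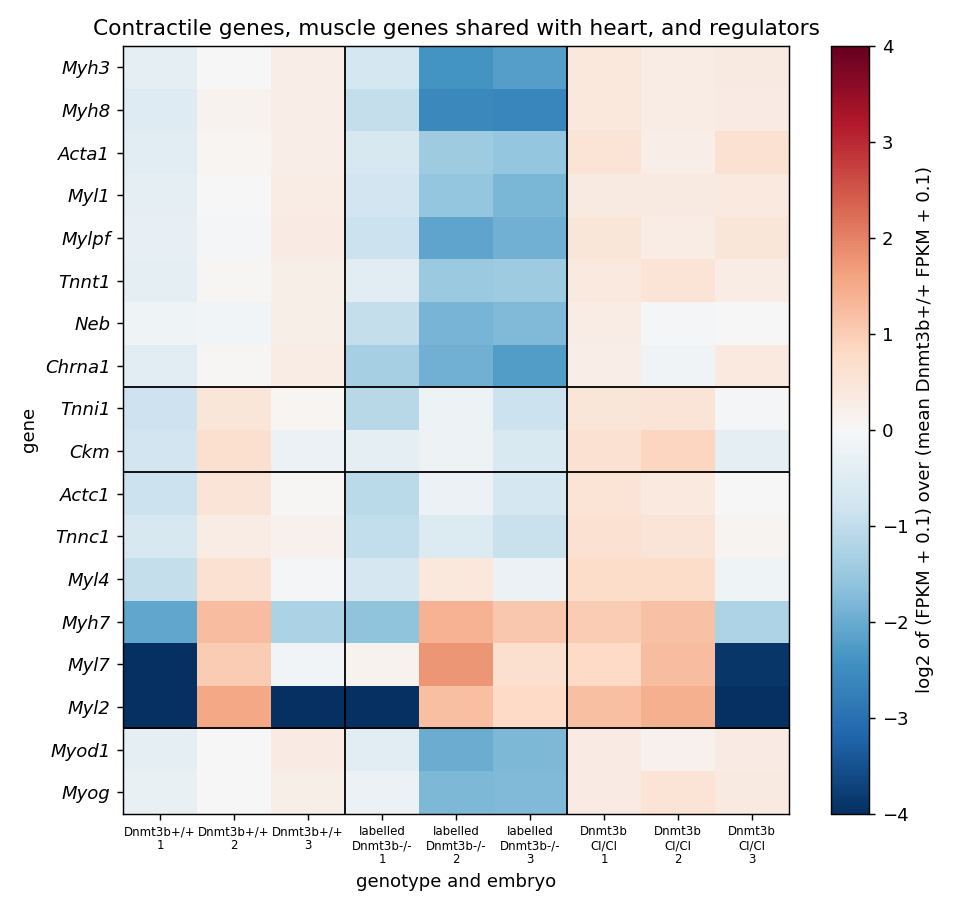
Log2 of the level in each embryo (columns) over the Dnmt3b+/+ mean, both with 0.1 FPKM added, for the contractile genes, muscle genes shared with heart, 2 heart light chains and 2 regulators (rows); colours end at −4 and 4, and Myl2 falls beyond −4 in 4 embryos. The upper 8 rows are blue in the 3 labelled Dnmt3b-/- columns and palest in the first of them, while Myl7 and Myl2 vary within every genotype.

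The balance between isoforms of a subunit was compared within each embryo. Tnnt3, the fast troponin T gene, was measured per length at 0.263, 0.288 and 0.257 of the level of slow Tnnt1 in Dnmt3b+/+ embryos. In the embryos labelled Dnmt3b-/- this ratio was 0.161, 0.151 and 0.148, and in Dnmt3bCI/CI embryos 0.268, 0.224 and 0.291. The labelled Dnmt3b-/- embryos were thus below all 6 others and close together, at 0.153 ± 0.0066 (SD, n = 3), although embryo 1 had kept more of both genes. Fast Tnni2 over slow Tnni1 gave 0.174 ± 0.036 in Dnmt3b+/+, 0.0549 ± 0.029 in the embryos labelled Dnmt3b-/- and 0.156 ± 0.063 in Dnmt3bCI/CI, again without overlap between the second group and the others. Within each genotype this ratio was highest in the embryo with the lowest heart gene sum (Dnmt3b+/+ embryo 1, labelled Dnmt3b-/- embryo 1 and Dnmt3bCI/CI embryo 3), and the part of heart tissue in it was not tested.

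Perinatal Myh8 stood at 0.0827 ± 0.0090 (SD, n = 3) of the level of embryonic Myh3 in Dnmt3b+/+, at 0.0564 ± 0.010 in the embryos labelled Dnmt3b-/- and at 0.0843 ± 0.0018 in Dnmt3bCI/CI. The 3 labelled Dnmt3b-/- embryos, at 0.0669, 0.0552 and 0.0470, were under the lowest of the other genotypes, 0.0732. Against Dnmt3b+/+, the embryos labelled Dnmt3b-/- had higher ratios of Acta1 and of Tnnt1 to Myh3, at 1.57 ± 0.47 against 1.02 ± 0.041 and at 0.936 ± 0.20 against 0.588 ± 0.017, but embryo 1 overlapped with Dnmt3bCI/CI in both. Mylpf over Myl1 overlapped between genotypes (3.94, 3.42 and 4.07 as means). These ratios were chosen with values known, and an exact permutation test of 3 embryos against 3 cannot give a 2-sided p below 0.1, so they are given as a description.

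**Figure D4:**
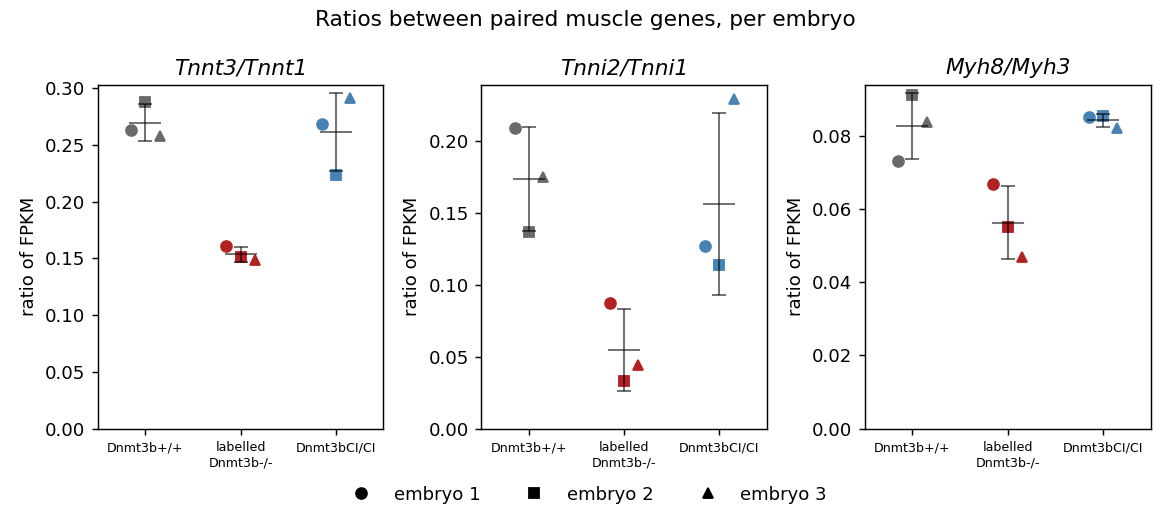
Ratios of FPKM (y axis, from 0) between fast and slow troponin T, fast and slow troponin I, and perinatal and embryonic heavy chain in each embryo, by genotype, with the mean and SD of 3 embryos. The red points of the embryos labelled Dnmt3b-/- lie under all other points in each panel, at 0.148 to 0.161 in the first.

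The wider set of muscle genes was examined in lists by role, in the embryos labelled Dnmt3b-/- against Dnmt3b+/+. Of 11 other thick filament genes tested, 4 were called lower and none higher, with a median of −0.93 on the log2 scale. Myom2, an M-band protein that links myosin filaments, went from 0.564, 0.615 and 0.953 FPKM to 0.187, 0.0531 and 0.0167 FPKM, and had the largest fall of the list (−2.20 ± 0.31, adjusted p = 0.00277). Of 12 other thin filament genes, 7 were called lower, with a median of −1.22. Tnni2, fast troponin I, fell most (−1.98 ± 0.21, adjusted p = 0.00073), from 0.883 to 1.44 FPKM in Dnmt3b+/+ to 0.181 to 0.301 FPKM.

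The Z-disc anchors the thin filaments. Of 14 genes tested from its list, 2 were called lower, Myot (−1.71 ± 0.25) and Myoz2 (−1.15 ± 0.22), and the median was −0.34. Actn2, the most abundant of them and also a heart gene, was at −0.97 ± 0.25, short of the 2-fold limit. The difference was above 0 in 5 of the 14 genes. Actn3, the α-actinin of fast fibres, added here after its values were seen, had 0.317, 0.423 and 0.317 FPKM in Dnmt3b+/+ and 0.814, 0.723 and 0.690 FPKM in those labelled Dnmt3b-/-. All 3 of these were above every Dnmt3b+/+ embryo, with a difference of 0.90 ± 0.13 (adjusted p = 0.00317) that was also short of the 2-fold limit. In excitation-contraction coupling, the step from membrane voltage to calcium release, 6 of 14 genes were called lower, with a median of −0.70. Srl, the most abundant of them, was not called (−0.17 ± 0.11). Sln, the inhibitor of the calcium pump of the sarcoplasmic reticulum, led with 1.73, 2.44 and 2.34 FPKM in Dnmt3b+/+ and 0.723, 0.2499 and 0.337 FPKM in the embryos labelled Dnmt3b-/-.

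Chrna1 works at the neuromuscular junction together with the products of the next list. Of its 7 tested genes, 6 were called lower and the median was −1.45, with Dok7, the activator of the receptor kinase MuSK, at −1.70 ± 0.22 (adjusted p = 0.00201). Chrnb1, the β-subunit that joins Chrna1 in the receptor, had 2.54, 2.33 and 2.94 FPKM in Dnmt3b+/+ and 1.31, 0.762 and 0.682 FPKM in the embryos labelled Dnmt3b-/-. The groups did not overlap in any of the 7 genes. Of 8 genes of myoblast fusion and the muscle membrane, 5 were called lower (median −1.14), led by Mymk, the fusion protein myomaker, at −1.99 ± 0.34. None of 7 genes of muscle energy metabolism was called (median −0.35), and Eno3, the muscle enolase, was higher by 0.59, short of the 2-fold limit.

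None of these muscle lists held a gene that was called in Dnmt3bCI/CI against Dnmt3b+/+. Among 13 myogenic regulators, 4 were called lower in the embryos labelled Dnmt3b-/- and the median was −0.08. Myod1, which encodes MyoD, fell most (−1.38 ± 0.36, adjusted p = 0.0259), from 7.96, 10.4 and 13.2 FPKM in Dnmt3b+/+ to 7.63, 2.55 and 2.98 FPKM, with embryo 1 just under the lowest Dnmt3b+/+ embryo. Myog, the most abundant of them, had 16.4, 20.2 and 24.0 FPKM in Dnmt3b+/+ and 17.2, 5.76 and 5.87 FPKM in the embryos labelled Dnmt3b-/-, so that embryo 1 lay within the Dnmt3b+/+ range although its 8 called contractile genes did not. Of 7 smooth muscle genes 1 was called lower, Myh11. Of 7 neuronal genes none was called. All 7 differences were below 0 (median −0.59), 2 of them with an unadjusted limma p under 0.05. Of all 19397 genes tested, 58.1% were below 0, and 4921 were lower with such a p. All 7 were also below 0 against Dnmt3bCI/CI (median −0.74), 4 of them with such a p. In that comparison 59.2% of all genes tested were below 0, and 5227 were lower with such a p. Neuronal sums were 148 to 281 FPKM in the embryos labelled Dnmt3b-/-, 184 to 360 FPKM in Dnmt3b+/+ and 215 to 253 FPKM in Dnmt3bCI/CI. Of 6 primitive erythroid genes 2 were called higher (Hbb-bh1 and Hba-x), and the sum of that list was 1798 to 5734 FPKM against 1372 to 2069 FPKM, highest in labelled Dnmt3b-/- embryo 2. Of 6 hepatocyte genes 1 was called lower (Ttr). Of the control genes Rpl4, Actb and Gapdh none was called, but all 3 differences were above 0 (0.13 to 0.77, log2 scale). One of these, 1 of 3, had an unadjusted limma p under 0.05. The control genes summed to 1002 to 1134 FPKM in the embryos labelled Dnmt3b-/-, without overlap with 856 to 923 FPKM in Dnmt3b+/+ and 880 to 918 FPKM in Dnmt3bCI/CI. The part of these other tissues in the levels of the contractile genes was not tested.

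**Figure D5:**
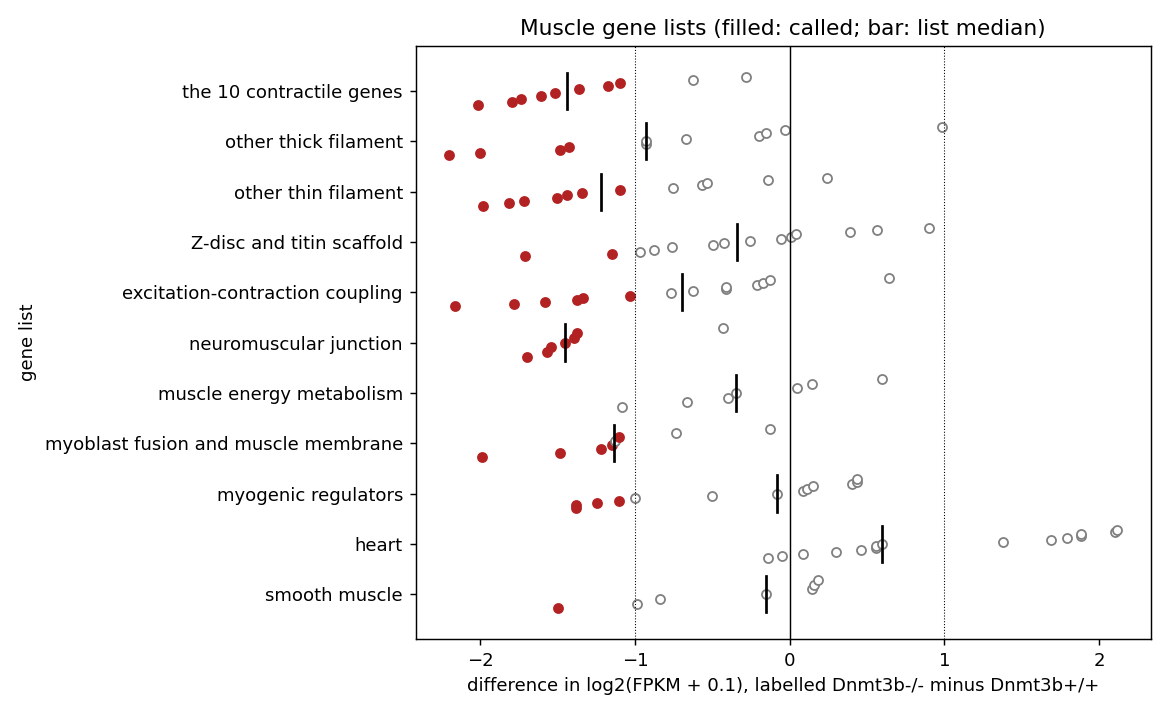
Difference in log2(FPKM + 0.1) between embryos labelled Dnmt3b-/- and Dnmt3b+/+ (x axis) for each tested gene of 11 lists (y axis); filled red points were called, black bars are list medians and dotted lines mark a 2-fold change. Called genes lie at the left in the filament, coupling, junction and fusion lists, and the heart list holds none.

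Among genes outside the 10, likeness was measured as the root mean square difference between the profile of a gene over the 9 embryos, on log2(FPKM + 0.1) and centred, and the mean profile of the 10. The median of all other genes was 0.769. The closest were Pirt (0.102), Arhgap20 (0.108), Casq2 (0.112), Arpp21 (0.125), Matn2 (0.131), Atp2a1 (0.133), Lmod3 (0.137), Sync (0.139), Klhl41 (0.1399) and Angptl1 (0.143). Casq2 and Atp2a1, the calcium store protein and the calcium pump of the sarcoplasmic reticulum, and Lmod3 and Klhl41, thin filament proteins, were on the muscle lists already. The 10 themselves lay at 0.101 (Myl1) to 0.399 (Myh8), apart from Tnni1 at 0.559 and Ckm at 0.637.

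Because Dnmt3b methylates cytosines of CpG dinucleotides, the promoters were read for CpG and for the motifs of muscle factors. RefSeq promoters (GRCm38.p6) were found for 9 of the 10, all but Neb, and the 250 bases before the start (the first listed start of Tnni1) were searched on both strands. These windows held 1 (Mylpf) to 9 (Acta1) CpG, beside a median of 6 over 27025 promoters. The general E-box CANNTG, the letters that MyoD and myogenin bind, was in all 9 and in 66% of all promoters. The E-box CAGCTG, a subset of it, was in 6 of 9 (Myl1, Tnni1, Chrna1, Ckm, Mylpf and Acta1) and in 12.8% of all. TATAAA was in 5 of 9 and in 13% of all. A CArG box, the motif of serum response factor, was found in Acta1 (1.4% of all), and a MEF2 site in Myh8 (1.73% of all), where it overlaps TATAAA. Genes that fell and genes that did not pass the test both held CAGCTG.

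For Mylpf, Tnni1, Myl1, Ckm and Tnnt1 the RefSeq start lies inside the gene span given above. The 100 bases before the RefSeq start are shown for 3 genes that fell and for Tnni1, which did not pass the test. They are written 5′ to 3′ on the strand of the gene, with the matches just named in capitals. The windows are Chrna1 (chr2:73580339-73580438, minus), Mylpf (chr7:127211508-127211607, plus), Acta1 (chr8:123894776-123894875, minus) and Tnni1 (chr1:135799321-135799420, plus).
Chrna1: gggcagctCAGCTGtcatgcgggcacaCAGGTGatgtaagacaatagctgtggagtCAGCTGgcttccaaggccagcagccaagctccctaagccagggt
Mylpf: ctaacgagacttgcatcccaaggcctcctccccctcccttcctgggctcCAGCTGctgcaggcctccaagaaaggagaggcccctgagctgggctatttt
Acta1: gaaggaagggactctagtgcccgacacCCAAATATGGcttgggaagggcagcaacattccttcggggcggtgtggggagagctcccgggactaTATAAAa
Tnni1: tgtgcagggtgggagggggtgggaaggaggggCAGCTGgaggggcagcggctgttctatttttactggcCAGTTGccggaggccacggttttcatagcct
Chrna1 carried 3 E-boxes in this stretch, Tnni1 2 and Mylpf 1, while Acta1 carried the CArG box and TATAAA. A match is a run of letters in the reference and not a measured binding site, and methylation at these promoters was not analysed here.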

How the data were processed

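Total RNA of 9 whole embryos was sequenced as paired-end reads. After trimming and alignment to mm10 (STAR), the authors kept well-mapped reads, counted them over genes with SeqMonk and deposited linear FPKM values in 1 table. Annotation release and strand are not given in the sources used here. A gene without reads holds a floor worth 0.9 reads. Reads and library totals were worked back from FPKM, that floor and exon lengths of GENCODE M21. Within 0.01 of a whole number, 91.2% of 1314 values of the listed genes came out whole. They were used for depth, not for the test. Positions are from GENCODE M21 (GRCm38).

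Of 34245 rows, 1 without a gene name was left out, and 46 that repeat an identifier were kept. A gene was tested if 3 or more of the 9 embryos reached 0.1 FPKM (19397 genes). limma 3.58.1 (R 4.3.3) was applied to log2(FPKM + 0.1) with all 9 embryos, 3 genotypes, no covariate and the variance moderated with a trend on the mean. P-values were adjusted over all tested genes (Benjamini-Hochberg), and a call needed both a 2-fold change and an adjusted p under 0.05. The authors used DESeq2, which needs counts and was not run here. Genotypes came from the sample labels, and the embryos are called independent there. All per-sample columns were used.

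The 10 genes and all lists were chosen with earlier results of these data known. All 10 are described. Of each list, the called genes with the largest change and the most abundant gene could be named, and others are said to be added. The alternatives were other pseudocounts, filters and scalings, a model with only 2 genotypes, a replicate block and leaving out libraries. The promoter sequences are from RefSeq. Python 3.11.15, pandas 2.3.3 and matplotlib 3.10.9 handled tables and figures. Bisulfite libraries of this series (9) were not analysed here.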

Additional observations from a re-analysis of the deposited data

How the results depend on the processing

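Of the 10 contractile genes, the number called lower in embryos labelled Dnmt3b-/- against Dnmt3b+/+ was 8, and 8 with a pseudocount of 0.01 FPKM, no filter, a filter at 1 FPKM (which drops Ckm), median-of-ratios scaling and quantile normalization. It was 5 with a pseudocount of 1 FPKM, 7 with only the 2 genotypes in the model (Tnnt1 was lost, adjusted p = 0.0584), and 5 to 8 with 1 embryo left out, 5 being without labelled Dnmt3b-/- embryo 2. Against Dnmt3bCI/CI the number was 8, with 6 at a pseudocount of 1 FPKM, 9 with only the 2 genotypes and 8 to 9 with 1 embryo left out. Dnmt3bCI/CI against Dnmt3b+/+ gave 0 under every alternative run. Leaving out the 4 libraries with little Myl2 gave 9 and 10 calls in the 2 comparisons with embryos labelled Dnmt3b-/-, and leaving out the 2 lowest in heart genes gave 8 and 10. Both checks were chosen after the data were seen. Over all genes, 655 lower and 208 higher calls against Dnmt3b+/+ became 392 and 272 with quantile normalization, 133 and 60 with a pseudocount of 1 FPKM, 1028 and 251 with 0.01 FPKM, 388 and 96 with the stricter filter, 443 and 171 without labelled Dnmt3b-/- embryo 2, 427 and 197 without embryo 3 and 1174 and 253 without embryo 1 of that genotype. Without the 4 libraries they were 1725 and 598. Against Dnmt3bCI/CI, 838 and 213 became 495 and 330 with quantile normalization, 185 and 57 with 1 FPKM, 492 and 105 with the stricter filter, 1346 and 258 without labelled Dnmt3b-/- embryo 1 and 1377 and 285 without the 4 libraries. The 25 genes higher in Dnmt3bCI/CI than in Dnmt3b+/+ became 8 with 1 FPKM and 15 without the 2 libraries lowest in heart genes, with 0 called lower in both. Without Dnmt3bCI/CI embryo 3, 2 genes were called lower.

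With the replicate number as a block (replicate block), 7 genes were called against Dnmt3b+/+ (Tnnt1 was lost, adjusted p = 0.0560), 9 against Dnmt3bCI/CI and 0 between Dnmt3bCI/CI and Dnmt3b+/+. The numbers do not pair the embryos, since 1 of 9 same-numbered pairs had a correlation over 0.1 (−0.34 to 0.215).

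Signs turned in 4 cases, none of them a call. Chrna1 in Dnmt3bCI/CI against Dnmt3b+/+ was −0.0059 without Dnmt3b+/+ embryo 1 and −0.12 without the 2 libraries low in heart genes, Neb was −0.0055 without Dnmt3bCI/CI embryo 1, and Ckm in embryos labelled Dnmt3b-/- against Dnmt3b+/+ was 0.096 without Dnmt3b+/+ embryo 2. With 1 embryo left out, these values ranged from −0.0059 to 0.38 for Chrna1, from −0.0055 to 0.23 for Neb and from −0.60 to 0.096 for Ckm. The cause was not tested. Ckm had 9 to 52 reads per embryo, the fewest of the 10 genes.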
